A study of Homo sapiens with 4 samples.

Results

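Matricellular proteins are secreted into the matrix around cells, where they act on receptors, proteases and growth factors more than they build the scaffold. The 10 genes described here were given as a list and found in the deposited table by matching Entrez ID to gene symbol. They are the thrombospondins THBS1, THBS2 and THBS3, tenascin-C (TNC), SPARC, its relative SPOCK1, the CCN proteins CCN1 and CCN2, and the fasciclin-domain proteins TGFBI and POSTN. All 10 were found among 39259 genes. The members were chosen by a list drawn up with their measured FPKM in libraries labelled KO and WT already known, above all for THBS1 and TNC. Their values in that comparison are therefore a description, and no p-value is given for them.

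RNA was sequenced from MDA-MB-231, an established human line of triple-negative breast cancer, in 2 libraries labelled as a knockout (KO) of mdig and 2 wild-type (WT) libraries. The gene for mdig (or MINA53), an oxygenase of the JmjC class, is RIOX2. All cells were grown in the same serum-containing medium. Neither the method of the knockout nor the number of clones is given in the sources used here, and nothing says that replicates were separate cultures, so p-values cover the spread among these 4 libraries only and that spread may be technical.

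Genes assigned 48768932 and 52163811 fragments in the libraries labelled KO, against 45173267 and 22503981 in WT. FPKM gives fragments per kilobase of gene and per 1000000 assigned fragments. RIOX2 RNA, at 9.23 and 9.82 FPKM in the libraries labelled KO against 8.60 and 8.24 FPKM in WT, did not fall. RNA level thus leaves the label unchecked, and a small edit need not change it. All 8 listed marker genes of the line averaged 1 FPKM or more in each group, while the estrogen and progesterone receptor genes ESR1 and PGR, which define luminal cells and are low in triple-negative lines, stayed under 0.0012 FPKM in every library. The summed level of all 8 luminal and epithelial markers was 159 and 155 FPKM in the libraries labelled KO and 110 and 118 FPKM in WT. Of the 4 tested among them, 2 were past the threshold as higher and 1 as lower, and KRT19 made up most of the sum, at 138 and 135 FPKM in the libraries labelled KO against 89.7 and 98.8 FPKM in WT. The summed level of 9 fibroblast markers was 5.64 and 5.48 FPKM in the libraries labelled KO and 4.15 and 3.92 FPKM in WT. Both tested fibroblast markers were past the threshold as higher, COL1A1 (3.01 and 2.70 FPKM in the libraries labelled KO, 1.86 and 2.09 FPKM in WT) and PDGFRB (1.49 and 1.5 FPKM in the libraries labelled KO, 1.26 and 1.12 FPKM in WT), and ACTA2 averaged 1.14 FPKM in the libraries labelled KO and 0.797 FPKM in WT. The others, DCN and LUM among them, were at or near 0. The summed level was 1.60 and 1.59 FPKM in the libraries labelled KO against 1.20 and 1.25 FPKM in WT for 5 endothelial markers, and 1.37 and 1.09 FPKM in the libraries labelled KO against 1.80 and 1.99 FPKM in WT for 7 leukocyte markers. Over all genes tested, 21.6% were past the threshold given below as higher and 28.4% as lower. The part of these markers in the results was not tested. In bulk RNA, fewer cells with a transcript and less of it per cell cannot be told apart.

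Thrombospondins are large oligomeric glycoproteins that bind receptors such as CD47, CD36 and integrins, and thrombospondin-1 can also release TGF-beta from its latent form. Tenascin-C is abundant in the matrix of wounds and tumors. TGFBI and CCN2 are classical TGF-beta-induced genes, and CCN1 and CCN2 are also textbook targets of YAP/TAZ with TEAD factors and of serum response factor. In breast cancer this class is best known for its part in the matrix that tumor cells and stroma make together.

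The 10 genes went several ways. THBS1, TNC, TGFBI, SPOCK1 and THBS3 were higher in the libraries labelled KO, by 2.25 to 8.18 times in mean FPKM. CCN1 and CCN2 were lower there, at 0.768 and 0.801 times the WT mean. SPARC was low, with groups that overlapped, and THBS2 and POSTN were at or near 0. The test across all genes was limma on log2(FPKM + 1), run on every gene averaging 1 FPKM or more across libraries, with Benjamini-Hochberg adjusted p under 0.05 as threshold. Of the 7 members that passed the filter, 5 were past the threshold as higher and 2 as lower. Over all 11716 genes tested, 49.9% were past it, 21.6% as higher and 28.4% as lower, and nothing is read from the members' count because this contrast chose them. The median change of all tested genes was −0.041 on the log2 scale.

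**Figure D1:**
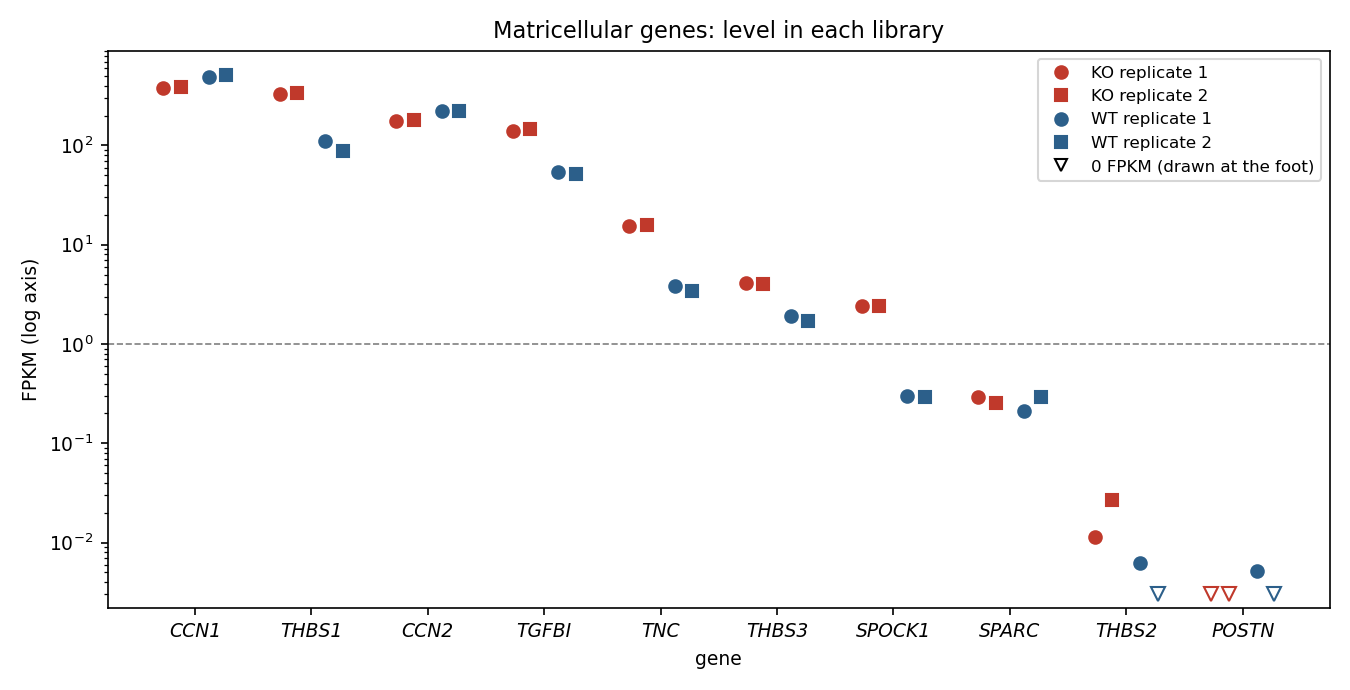
Level of each matricellular gene in every library, in FPKM on a log axis, with libraries labelled KO in red left of WT in blue, circles for replicate 1, squares for replicate 2 and open triangles at the foot for 0 FPKM. The dashed line marks 1 FPKM; CCN1 stands highest in every library, and THBS1 stands at 328 and 339 FPKM in the libraries labelled KO and 112 and 88.1 FPKM in WT.

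THBS1 (Entrez ID 7057; chromosome 15, 39581079 to 39599466, plus strand; coordinates as deposited, which match GRCh38) encodes thrombospondin-1. It measured 328 and 339 FPKM in KO replicates 1 and 2, against 112 and 88.1 FPKM in WT replicates 1 and 2. Both libraries labelled KO lay above both WT libraries, as did those of 32.9% of all genes tested, while groups did not overlap in either direction for 77.5%. The log2 change was 1.73 (SE 0.118), on counts of 124634 and 137534 fragments in the libraries labelled KO against 39525 and 15439 in WT. By level THBS1 ranked 120th and 117th of all genes in the libraries labelled KO, against 436th and 598th in WT. The pair labelled KO differed by 3.12% of its mean and the WT pair by 24.2%, where counting error gives SDs of 0.391% for the pair labelled KO and 0.949% for WT. Without WT replicate 1 the log2 change was 1.91 and without WT replicate 2 it was 1.56.

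Exons of THBS1 share 2186 of its 7789 bp with FSIP1 on the other strand. No strand setting is given, and reads from the shared stretch cannot be assigned to either gene without one. FSIP1 had 66 and 64 fragments in the libraries labelled KO, against 35 and 18 in WT, a small number beside those of THBS1. These counts do not show whether shared reads went uncounted, which would lower the FPKM of THBS1, and that was not tested.

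The other thrombospondins were far lower. THBS3 (Entrez ID 7059; chromosome 1, 155195588 to 155209180, minus strand) belongs to the pentameric branch of the family. It measured 4.15 and 4.07 FPKM in the libraries labelled KO and 1.92 and 1.72 FPKM in WT, a log2 change of 0.86 (SE 0.064). The groups were well apart, and the difference of the WT pair (10.8% of its mean) was close to its counting SD (8.13%). THBS3 shares 730 exonic bp with THBS3-AS1 and 294 bp with MTX1, both on the other strand. MTX1 measured 12.1 and 10.8 FPKM in the libraries labelled KO against 11.6 and 11.5 FPKM in WT. THBS3-AS1 measured 1.02 and 1.06 FPKM in the libraries labelled KO against 1.11 and 0.960 FPKM in WT. The groups of both partners overlapped. The part of shared reads in the change of THBS3 was not tested.

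THBS2 (Entrez ID 7058; chromosome 6, 169215785 to 169253846, minus strand), a trimeric relative of THBS1 that restrains vessel growth in mice, was under the filter. It had 4 and 10 fragments in the libraries labelled KO against 2 and 0 in WT. Summed and divided by assigned fragments, the ratio was 4.69 (95% exact interval 1.08 to 42.6, counting error only). The interval treats fragments as independent, covers no spread between libraries and is no test of a gene chosen with this contrast known. Counts of this size lie near the floor of 3 fragments in a library and are too few to rank its level.

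TNC (Entrez ID 3371; chromosome 9, 115019575 to 115118244, minus strand) encodes tenascin-C, a hexameric glycoprotein that binds integrins. It measured 15.5 and 15.7 FPKM in KO replicates 1 and 2, against 3.82 and 3.40 FPKM in WT replicates 1 and 2. Every library of one group lay far from every library of the other. The spread within the pair labelled KO (1.28% of its mean) was below its counting SD (1.66%). The WT pair differed by 11.4% of its mean, above its counting SD of 4.52%. The mean was 4.33 times that of WT and the log2 change 1.85 (SE 0.0639). By level TNC ranked 3691st and 3672nd in the libraries labelled KO, against 8481st and 8795th in WT. No other gene in the table overlaps it.

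TGFBI (Entrez ID 7045; chromosome 5, 136028988 to 136063818, plus strand) encodes an adhesion protein that binds integrins and collagens. It measured 140 and 145 FPKM in the libraries labelled KO against 54.5 and 51.3 FPKM in WT, a log2 change of 1.42 (SE 0.0551). The groups were again far apart. POSTN (Entrez ID 10631; chromosome 13, 37562585 to 37598839, minus strand), which encodes the related protein periostin, had 0 fragments in both libraries labelled KO and 1 and 0 in WT. A count of 0 allows up to 3 fragments, or 0.0145 and 0.0136 FPKM, in the libraries labelled KO. No fold change is given for POSTN.

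SPOCK1 (Entrez ID 6695; chromosome 5, 136975298 to 137499326, minus strand) encodes testican-1, a proteoglycan with a domain like that of SPARC. It measured 2.43 and 2.42 FPKM in the libraries labelled KO and 0.298 and 0.295 FPKM in WT, from 571 and 610 fragments in the libraries labelled KO against 65 and 32 in WT. Mean FPKM was 8.18 times that of WT, the largest ratio among the 7 members that passed the filter. It passed the filter only through its level in the libraries labelled KO, so it had to differ. The log2 change of 1.40 (SE 0.0633) understates the difference of so low a gene, and on fragment counts (voom) it was 3.02.

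SPARC (Entrez ID 6678; chromosome 5, 151661096 to 151686915, minus strand) encodes a collagen-binding glycoprotein made in quantity by fibroblasts and bone. It measured 0.291 and 0.256 FPKM in the libraries labelled KO and 0.212 and 0.296 FPKM in WT, from 23 to 49 fragments a library. The groups overlapped, and each pair differed by about as much as counting error gives (13% against an SD of 20.5% in the pair labelled KO, 33.3% against 27.2% in WT). SPOCK1 stood clearly above SPARC in both libraries labelled KO, whereas in WT they were at about the same level.

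CCN1 (Entrez ID 3491; chromosome 1, 85580761 to 85583950, plus strand), also known as CYR61, encodes an integrin-binding protein of the immediate early class. It measured 382 and 385 FPKM in the libraries labelled KO and 491 and 508 FPKM in WT. CCN2 (Entrez ID 1490; chromosome 6, 131948176 to 131951372, minus strand), the connective tissue growth factor, measured 177 and 179 FPKM in the libraries labelled KO and 222 and 223 FPKM in WT. Both libraries labelled KO lay below both WT libraries for each gene, as for 44.6% of all genes tested. The log2 changes were −0.38 (SE 0.0516) for CCN1 and −0.32 (SE 0.0492) for CCN2. The ratio of CCN1 to CCN2 was 2.16 and 2.15 in the libraries labelled KO and 2.21 and 2.28 in WT. These differences are small in fold but involve abundant transcripts, since CCN1 ranked 108th and 107th by level in the libraries labelled KO and 87th and 90th in WT.

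**Figure D2:**
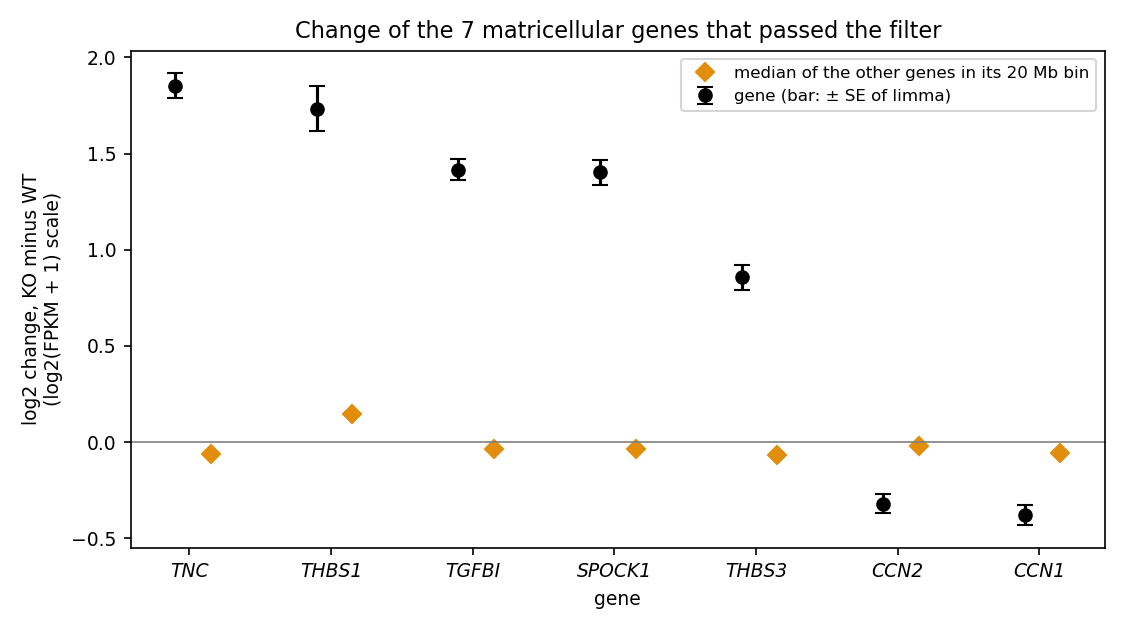
Difference between the libraries labelled KO and WT for the 7 members that passed the filter (black, ± SE of limma, log2(FPKM + 1) scale), beside the median difference of the other genes in the same 20 Mb bin of the genome (orange). TNC stands highest at 1.85 and CCN1 lowest at −0.38, while the bin medians run from −0.0682 to 0.146.

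Because FPKM is per length, levels can be set against each other across genes. The place of THBS1 rests on its FPKM as deposited, with the limit of its shared exons given above. In the libraries labelled KO the order was CCN1, THBS1, CCN2, TGFBI, TNC, THBS3, SPOCK1 and SPARC, with THBS2 near 0 and POSTN at 0. In WT it was CCN1, CCN2, THBS1, TGFBI, TNC and THBS3, followed by SPOCK1 and SPARC, whose values lay side by side. THBS1 thus stood above CCN2 in both libraries labelled KO and below it in both WT libraries. Summed over the 10 genes, the level was 1050 and 1070 FPKM in the libraries labelled KO and 886 and 876 FPKM in WT. THBS1 supplied 31.3% and 31.7% of this sum in the libraries labelled KO, against 12.6% and 10.1% in WT. CCN1 and CCN2 together summed to 559 and 564 FPKM in the libraries labelled KO and 713 and 731 FPKM in WT. TGFBI supplied 13.3% and 13.5% in the libraries labelled KO and 6.15% and 5.86% in WT. In sequenced fragments the 10 genes took 0.440% and 0.451% of the libraries labelled KO, against 0.271% and 0.255% of the WT libraries.

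**Figure D3:**
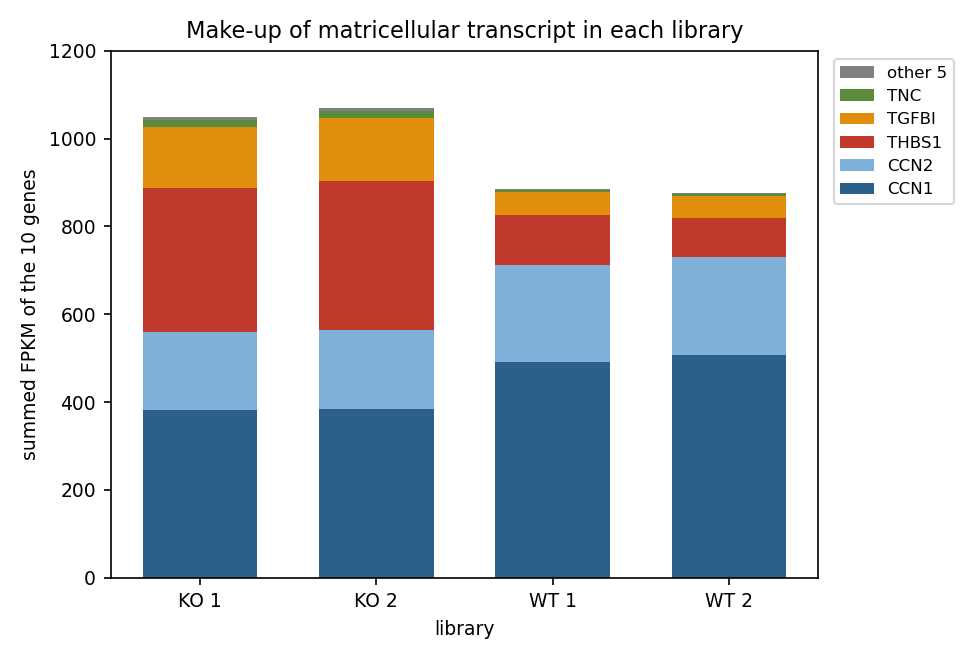
Summed FPKM of the 10 genes in each library, stacked by gene, libraries labelled KO left of WT. The bars reach 1050 and 1070 FPKM in the libraries labelled KO and 886 and 876 FPKM in WT, and the THBS1 and TGFBI layers are thicker and the CCN1 and CCN2 layers thinner in the libraries labelled KO.

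Bases directly upstream of an annotated gene start were read for THBS1, TNC, TGFBI and CCN2. They set the promoters of 3 genes that were higher in the libraries labelled KO beside that of CCN2, which was lower. They come from RefSeq on GRCh38.p14, whose promoter table holds 8 of the 10 members, without SPOCK1 and CCN1. Each run is the 250 bases before a RefSeq start, 5′ to 3′ on the strand of the gene. The windows are those of THBS1 (chr15:39580829-39581078, plus strand), TNC (chr9:115118158-115118407, minus strand), TGFBI (chr5:136028738-136028987, plus strand) and CCN2 (chr6:131951373-131951622, minus strand). For THBS1, TGFBI and CCN2 the window ends at the deposited gene start. For TNC part of the window lies inside the gene as deposited, which starts at 115118244 on the minus strand. Capitals mark matches, on either strand, to GGAATG (the core bound by TEAD factors), TATAAA (a form of the TATA box) and GGGCGG (a site of SP and KLF factors). They also mark TGANTCA (AP-1), GTCTAGAC (a palindrome bound by SMAD proteins) and the CArG box of serum response factor. Other forms of these sites, such as the tatataa in TNC, are not marked.
THBS1: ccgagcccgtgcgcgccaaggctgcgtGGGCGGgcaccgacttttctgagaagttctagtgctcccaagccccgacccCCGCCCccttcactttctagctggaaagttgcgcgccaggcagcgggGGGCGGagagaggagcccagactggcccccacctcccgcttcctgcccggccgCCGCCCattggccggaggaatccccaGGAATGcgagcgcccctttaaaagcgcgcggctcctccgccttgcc
TNC: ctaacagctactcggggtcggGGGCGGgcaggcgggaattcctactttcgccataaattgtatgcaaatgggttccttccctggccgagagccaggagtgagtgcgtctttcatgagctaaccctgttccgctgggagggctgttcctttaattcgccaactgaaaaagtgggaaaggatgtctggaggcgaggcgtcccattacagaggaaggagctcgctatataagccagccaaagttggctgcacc
TGFBI: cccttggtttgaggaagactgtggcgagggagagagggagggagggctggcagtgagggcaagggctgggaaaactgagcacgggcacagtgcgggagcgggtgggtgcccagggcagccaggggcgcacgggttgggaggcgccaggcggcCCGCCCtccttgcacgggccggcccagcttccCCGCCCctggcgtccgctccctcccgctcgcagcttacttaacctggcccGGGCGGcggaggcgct
CCN2: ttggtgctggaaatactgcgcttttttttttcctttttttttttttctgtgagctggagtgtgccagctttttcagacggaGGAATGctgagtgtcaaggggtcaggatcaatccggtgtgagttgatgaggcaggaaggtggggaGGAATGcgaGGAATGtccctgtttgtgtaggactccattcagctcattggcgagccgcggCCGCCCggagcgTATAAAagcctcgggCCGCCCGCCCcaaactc

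CCN2 held 3 matches to GGAATG, starting 169, 104 and 95 bases before its start, and a TATAAA that starts 32 bases before it. At least 3 GGAATG matches occur in 0.0826% of all 35116 promoters of this length in the table, and at least 1 in 11.9%. THBS1 held 1 GGAATG, starting 46 bases before its start, and TNC and TGFBI held none. GGGCGG occurred 4 times in THBS1, 1 time in TNC, and 3 times each in TGFBI and CCN2, where a pair of matches overlap, and it occurs in 42.6% of all promoters. No match to TGANTCA, GTCTAGAC or the CArG box lay in these 4 windows; these motifs occur in 6.57%, 0.182% and 1.16% of all promoters, and TATAAA occurs in 10.7%. The matches are letters in a window, not measured binding. GC content of the windows was 69.6% for THBS1, 54.8% for TNC, 72.8% for TGFBI and 53.2% for CCN2. In the windows of members not printed here, GGAATG occurred 2 times in THBS2, 1 time in SPARC and not in THBS3 or POSTN. The part of any of these matches in the changes was not tested.

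TGFBI, SPOCK1 and SPARC lie on chromosome 5, THBS3 and CCN1 on chromosome 1, THBS2 and CCN2 on chromosome 6, and the other members on a chromosome each. Genes near the 7 tested members were compared with them. The counts below stand beside 21.6% of all genes tested past the threshold as higher and 28.4% as lower. THBS1 lies in a region that was itself shifted: of 13 tested genes that start within 1 Mb of its start, 11 were higher and 0 lower, with a median change of 0.33. The part of that shift in the change of THBS1 was not tested. With medians of 20 Mb bins subtracted, the log2 change of THBS1 was 1.56. The median of its bin was 0.146, below that of the neighbours within 1 Mb, so the nearer shift was not removed in full. Around TNC, 0 of 5 tested neighbours were higher and 2 were lower, with a median of −0.065. Around TGFBI 0 of 3 were higher and 1 was lower, and around SPOCK1 0 of 10 were higher and 2 were lower. THBS3 lies in a dense region, where 8 of 51 tested neighbours were higher and 18 lower, with a median of −0.075, and MUC1, which starts 0.0163 Mb downstream and was named after its value was seen, had a change of 1.16. TGFBI and SPOCK1 lie 0.911 Mb apart on chromosome 5, and the 1 tested gene between them, SMAD5, had a change of 0.0044. Around CCN1, 5 of 9 tested neighbours were lower and 1 was higher, with a median of −0.17. DDAH1, which starts 0.00249 Mb upstream of CCN1 and was named after its value was seen, had a change of −0.43. Around CCN2, 2 of 10 were lower and 1 was higher, with a median of 0.0063. The higher one, ENPP1, starts 0.143 Mb downstream of CCN2, had a change of 0.63 and was also named after its value was seen.

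**Figure D4:**
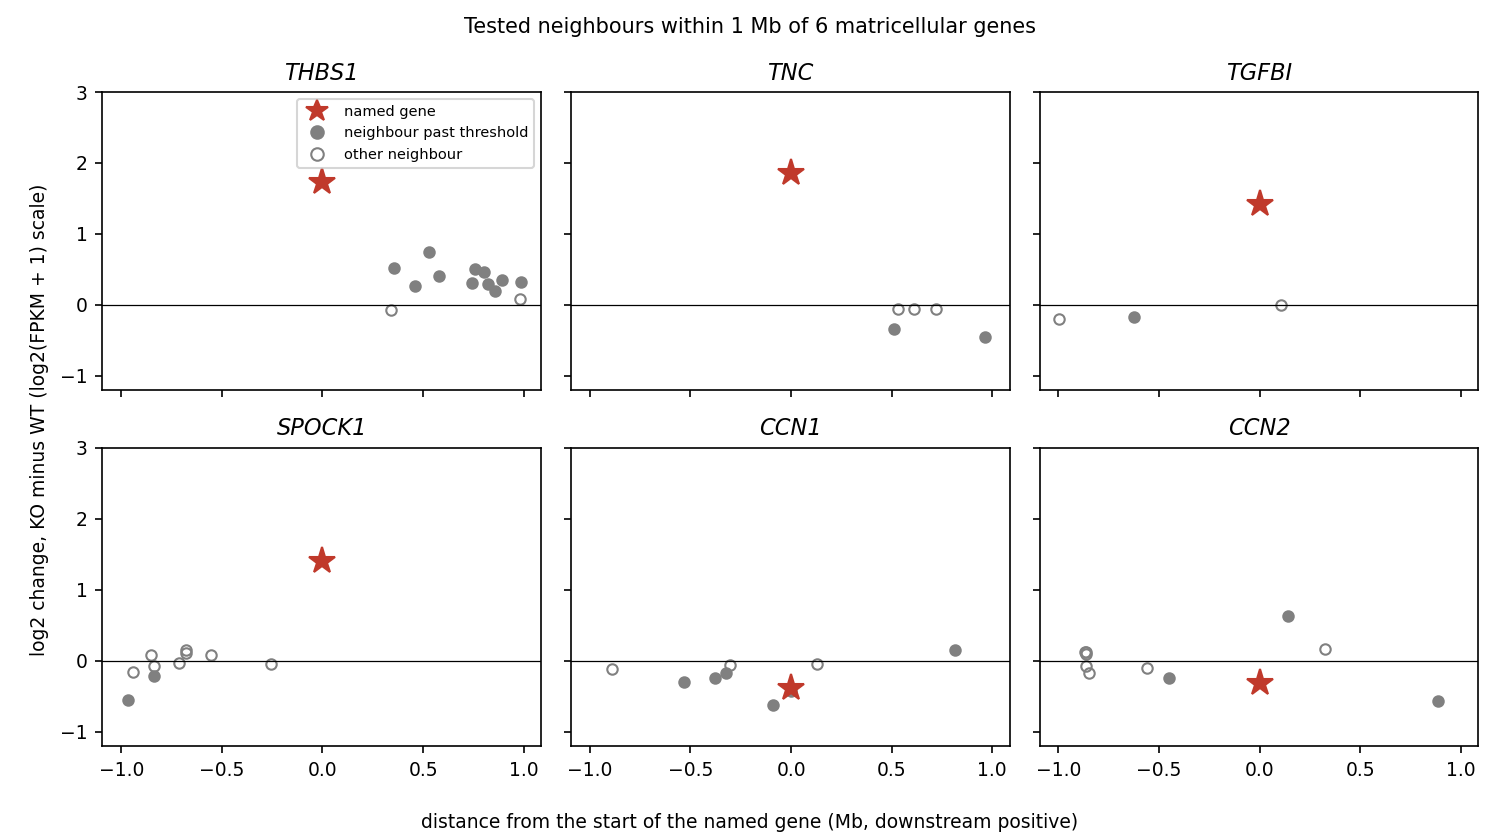
Change of 6 matricellular genes (red stars) and of tested genes that start within 1 Mb of them (grey, filled where past the threshold), against distance from the start of the named gene in Mb, downstream positive. The neighbours of THBS1 lie mostly above 0 with a median of 0.33, while those of TNC have a median of −0.065.

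Genes around the 10 members were taken from 7 lists, whose counts stand beside the 49.9% of all genes past the threshold. The lists, too, were chosen with earlier results of these data known, so the adjusted p-values given for their genes are descriptive. Of 17 other matricellular genes, 2 passed the filter. CCN3, a growth-restraining member of the CCN family, measured 1.34 and 1.74 FPKM in the libraries labelled KO and 3.0 and 3.16 FPKM in WT and fell (log2 change −0.69, limma adjusted p = 0.000452). The other, FSTL1, named because only these 2 could be tested, averaged 20.2 ± 0.318 FPKM in the libraries labelled KO and 22.3 ± 1.03 FPKM in WT (SD, n = 2 each) and did not pass the threshold (−0.14, adjusted p = 0.0785).

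Receptors and uptake proteins for these ligands rose in 8 and fell in 1 of 14 tested genes out of 23 listed, with a median of 0.21. ITGB1, the beta subunit shared by many matrix receptors, measured 248 and 264 FPKM in the libraries labelled KO and 151 and 118 FPKM in WT (log2 change 0.93, adjusted p = 0.00334). LRP1, an endocytic receptor that clears thrombospondins, measured 7.55 and 7.24 FPKM in the libraries labelled KO against 4.32 and 3.31 FPKM in WT (0.81, adjusted p = 0.000725). ITGAV, the alpha-V integrin subunit that pairs with several beta chains, rose by 0.44 (20.9 and 22.5 FPKM in the libraries labelled KO, 17.5 and 14.1 FPKM in WT, adjusted p = 0.0109), a call lost with no filter on low values (adjusted p = 0.0644). In both ITGB1 and LRP1, as in THBS1, WT replicate 1 stood above WT replicate 2. CD47, the widely expressed thrombospondin receptor, had overlapping groups (mean 7.66 FPKM in the libraries labelled KO and 7.83 FPKM in WT), and CD36 averaged 0.0254 FPKM in the libraries labelled KO and 0.0170 FPKM in WT.

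Among ligands, latency proteins, receptors and SMADs of the TGF-beta pathway, 9 of 16 tested genes rose and 3 fell (20 listed, median 0.23). LTBP2, a latent TGF-beta-binding family member of elastic fibers, measured 7.41 and 7.25 FPKM in the libraries labelled KO and 3.08 and 3.01 FPKM in WT (1.04, adjusted p = 1.05e-05). TGFBR1, the type I receptor kinase, rose by 0.75 (11.2 and 11.8 FPKM in the libraries labelled KO, 6.79 and 6.11 FPKM in WT), and LTBP1, which tethers latent TGF-beta, by 0.74 (18.2 and 18.6 FPKM in the libraries labelled KO, 11.5 and 9.82 FPKM in WT).

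Of 17 tested TGF-beta-induced genes, 9 rose and 2 fell (20 listed, median 0.17). PMEPA1, a feedback inhibitor of the pathway, measured 50.7 and 51.1 FPKM in the libraries labelled KO against 14.2 and 14.6 FPKM in WT (log2 change 1.75). SNAI2, a transcriptional repressor of epithelial genes, rose by 1.16 (7.33 and 7.40 FPKM in the libraries labelled KO, 2.86 and 2.65 FPKM in WT). FN1, fibronectin, rose by 0.74 (135 and 140 FPKM in the libraries labelled KO, 91.4 and 73.2 FPKM in WT, adjusted p = 0.00254). JUNB, an AP-1 subunit named after its values were seen, was among the genes that fell, at 20.7 and 20.3 FPKM in the libraries labelled KO against 25.3 and 30.7 FPKM in WT (−0.43).

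YAP/TEAD targets other than CCN1 and CCN2 were split, with 7 of 20 tested genes higher, 6 lower and a median of −0.031. CRIM1, a transmembrane protein that binds BMPs, fell by 0.63 on the log2 scale (27.6 and 27.6 FPKM in the libraries labelled KO, 45.1 and 41.1 FPKM in WT, adjusted p = 0.000141). CCDC80, a secreted matrix protein, rose by 0.55 (2.68 and 2.89 FPKM in the libraries labelled KO, 1.62 and 1.55 FPKM in WT), and FJX1 fell by 0.54 (12.8 and 12.6 FPKM in the libraries labelled KO, 17.5 and 20.6 FPKM in WT). The part of YAP/TEAD factors in the changes of CCN1, CCN2 and these targets was not tested.

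Proteases that act on matricellular proteins rose in 5 and fell in 1 of 9 tested genes (18 listed, median 0.15). PLAU, urokinase, measured 136 and 136 FPKM in the libraries labelled KO and 57.5 and 59.3 FPKM in WT (1.21), in a bin with a median of 0.35. HTRA1, a secreted serine protease, rose by 1.10 (23.2 and 24.2 FPKM in the libraries labelled KO, 10.6 and 10.5 FPKM in WT). MMP1, interstitial collagenase, was the only tested gene of this list past the threshold as lower. It passed the filter only through its level in WT, so it had to differ, and it fell by 2.12 (0.666 and 0.827 FPKM in the libraries labelled KO, 6.84 and 6.34 FPKM in WT).

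Of 16 tested transcription factors and cofactors that can act on these promoters, 6 were higher and 4 lower (18 listed, median 0.072). FOS and JUN encode subunits that together form AP-1. EGR1, an immediate early zinc finger factor, fell by 0.56 (18.9 and 17.8 FPKM in the libraries labelled KO, 27.6 and 27.3 FPKM in WT, adjusted p = 0.00018). FOS rose by 0.51 (4.83 and 4.87 FPKM in the libraries labelled KO, 3.01 and 3.19 FPKM in WT) and JUN by 0.47 (47.9 and 49.4 FPKM in the libraries labelled KO, 32.4 and 37.6 FPKM in WT), with JUN in a bin with a median of 0.23.

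**Figure D5:**
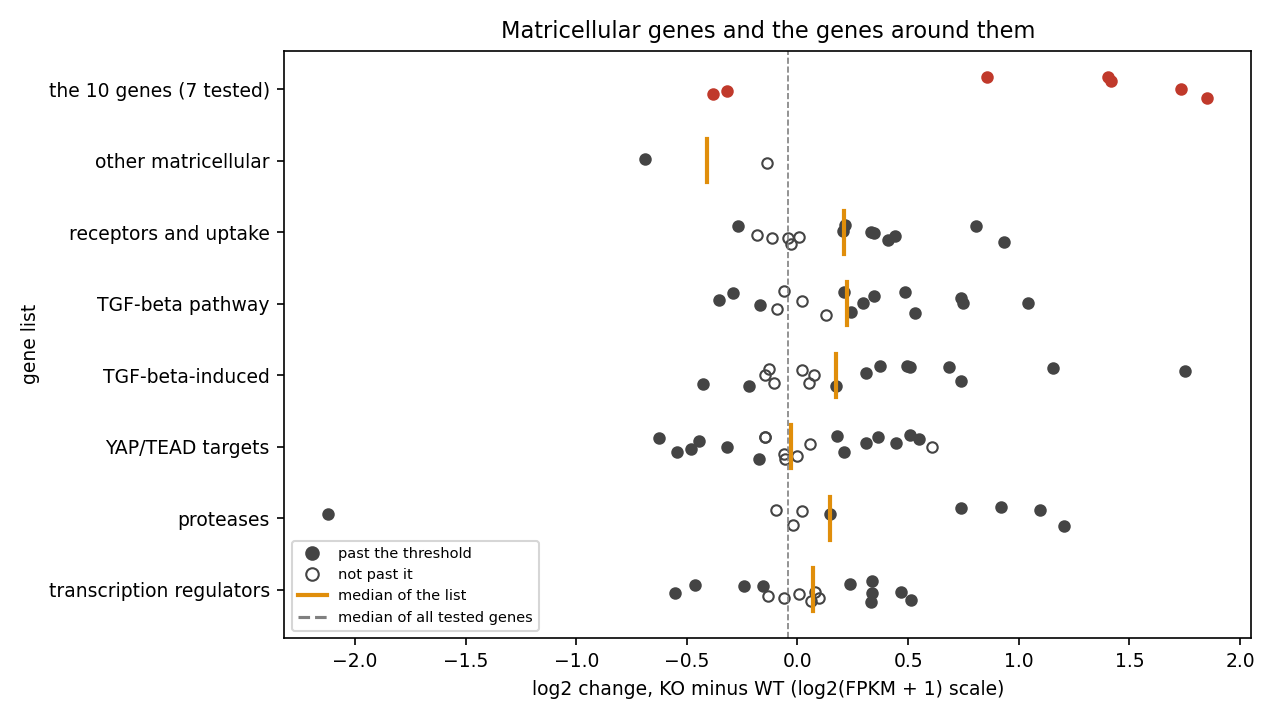
Change of each tested gene, libraries labelled KO minus WT on the log2(FPKM + 1) scale, for the 7 tested members (red, above) and for the 7 lists of other genes (dark), filled where past the threshold, with the list's median in orange and the median of all tested genes (−0.041) dashed. The members lie in 2 sets, from 0.86 to 1.85 and at −0.38 and −0.32.

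Genes whose profile over the 4 libraries was nearest to that of THBS1 or TNC were found by Euclidean distance between centred log2(FPKM + 1) values. Those nearest to THBS1 were CEMIP, a hyaluronan-degrading protein (distance 0.189), APCDD1L (0.194) and TNC itself (0.196). CEMIP and ANXA8L1 passed the filter only through the libraries labelled KO. CEMIP measured 3.57 and 3.85 FPKM in the libraries labelled KO and 0.686 and 0.471 FPKM in WT. Those nearest to TNC were PMEPA1 (0.158), the calcium-binding protein S100A2 (0.178) and ANXA8L1 (0.180), an annexin whose reads can be shared with near-identical copies. S100A2 measured 69.2 and 68.1 FPKM in the libraries labelled KO and 19.2 and 20.3 FPKM in WT. With 4 libraries in 2 groups, this likeness is mostly one of size of change, so nothing is read from it about function.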

How the data were processed

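Per the labels' protocols, a company prepared and sequenced libraries from total RNA of cultured cells. Tools named without versions in the submitters' processing notes are STAR, Subread and DESeq2. Neither the build nor the annotation or strand setting is stated there, nor elsewhere in the sources used here. Deposited by the authors was 1 table of FPKM by Entrez ID with exon coordinates and gene lengths, per the file headers. FPKM times length in kilobases summed to 1000000 per library and was a whole multiple of its smallest value for 100% of values (tolerance 0.001), which gave the fragments and depths. Columns of other samples numbered 0. Symbols came from RefSeq (37708 genes, 96.0%), and 98.4% of matched genes had a start or end within 1000 bp of GRCh38.

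Libraries were grouped by title. The test was limma 3.58.1 in R 4.3.3 (trend, robust) on log2(FPKM + 1), labelled KO minus WT. It was run on the 11716 genes averaging 1 FPKM or more and adjusted by Benjamini-Hochberg over all of them. The code was also run on simulated counts with a single set spread, which checks the code and not error rates in these data. An exact permutation test of 2 against 2 libraries cannot go below p = 0.333 and was not used. Members and lists were chosen with earlier results of these data known. Named genes were the members, the 3 largest changes past the threshold in each list, the 3 profiles nearest to THBS1 and to TNC, RIOX2 and genes with exons overlapping a member, besides those marked or given as background. Intervals and floors (3 fragments) cover counting error only. Libraries of a group differed beyond counting error (chi-square over degrees of freedom 5.69 for the pair labelled KO and 8.23 for WT) and were kept apart. Alternatives were other pseudocounts, filters, scalings and moderation, voom, replicate blocks, each library left out, and trends with gene length or region removed. One listed gene is not reported here by name.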

Additional observations from a re-analysis of the deposited data

How the results depend on the processing

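For THBS1, TNC, TGFBI, SPOCK1, THBS3, CCN1 and CCN2, each alternative that kept the gene gave the same direction. The alternatives refit the same 4 libraries for genes chosen with this contrast known. Their agreement describes the processing only and is no test of a difference. The log2 change ranged from 1.56 to 1.91 for THBS1, 1.79 to 2.10 for TNC, 1.37 to 1.47 for TGFBI, 1.40 to 3.02 for SPOCK1, 0.81 to 1.15 for THBS3, −0.41 to −0.28 for CCN1 and −0.33 to −0.25 for CCN2. SPOCK1 and THBS3 have no value with a mean of at least 5 FPKM. SPARC, fitted with no filter, ranged from −0.026 to 0.18 and was never past the threshold. THBS2 and POSTN have no fitted value. Leaving out each library in turn, 1559 to 3076 genes were higher and 1962 to 4001 lower, and the cause was not tested. Called members of the list of other matricellular genes numbered 3 with no filter, 0 with a mean of at least 5 FPKM (where CCN3 is not tested), 2 with voom, 2 with the gene length trend removed, 2 with a crossed replicate block, and 1 to 2 without single libraries. Called transcriptional regulators numbered 6 with no filter and 6 to 12 without single libraries. Again the cause was not tested. RIOX2 passed the threshold, as a rise, in 8 of 15 alternatives.

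The replicate numbers are shared by both groups, but nothing in the labels pairs them, and deviations correlated at r = −0.225 across 11716 genes. With the replicate block, 2348 genes were higher and 3029 lower. With the numbers crossed, chosen after the data were seen, 2839 were higher and 3821 lower. WT replicate 2 was the shallowest library, so low genes such as SPARC, THBS2 and POSTN are least precise there.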

Other observations

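Among listed genes that no comparison above could use, because their mean was under 1 FPKM, some had groups that did not overlap. Groups did not overlap for 77.5% of the genes tested, which all averaged 1 FPKM or more. Nothing is therefore read from the lack of overlap in lower genes. FBLN5, a protein of elastic fibers, measured 0.0673 and 0.0686 FPKM in the libraries labelled KO and 0.508 and 0.504 FPKM in WT. SPOCK3, a testican like SPOCK1, measured 0.902 and 0.963 FPKM in the libraries labelled KO and 0.289 and 0.254 FPKM in WT. Both were chosen after their values were seen. With no filter on low values, 3 of the 17 other matricellular genes were past the threshold, CCN3, FBLN5 and SPOCK3. Over all genes fitted in that setting, 2240 were past it as higher and 2664 as lower. Nothing is read from the count of 3.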
